A study of Mus musculus with 10 samples.

Results

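Transcript levels were described here for 10 genes of the TGF-β system: the ligands *Tgfb1*, *Tgfb2* and *Tgfb3*, the receptors *Tgfbr1*, *Tgfbr2* and *Tgfbr3*, and the latent TGF-β binding proteins *Ltbp1*, *Ltbp2*, *Ltbp3* and *Ltbp4*. The genes were chosen by symbol, and all 10 were present among the 23230 features of the expression matrix. RNAseq had been done on 10 mouse cultures. AstroEGFR* were cortical astrocytes of C57BL/6 pups at postnatal day 5, lacking p16/p19 (*Ink4a/Arf*) and infected with a retrovirus for human EGFRvIII, a constitutively active receptor, and 1 library came from each of 3 astrocyte batches. PT were glioma propagating cells cultured from primary tumours that the same C57BL/6 astrocytes had formed in CD1 Nude mice, athymic hosts that lack T cells, where astrocytes of batch 1 gave PT1 and PT4, those of batch 2 gave PT2 and those of batch 3 gave PT3. AstroEGFR* *Zfp423* were AstroEGFR* of each batch that also carried a *Zfp423* vector (3 libraries), called lentiviral in the labels and retroviral in the study's methods. All 10 cultures shared the p16/p19 loss and the EGFRvIII transgene, and all were used below passage 10. Fetal bovine serum was in the medium of AstroEGFR*, and PT grew without serum, with EGF and FGF2, so the culture medium and the tumour step cannot be told apart.

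TGF-β ligands are made as precursors whose propeptide stays bound to the mature dimer and keeps it inactive. Latent TGF-β binding proteins attach to that propeptide and fix the complex in the extracellular matrix, from which integrins and proteases release the ligand. The free ligand binds TGFBR2, which recruits and phosphorylates TGFBR1, which in turn phosphorylates SMAD2 and SMAD3, while TGFBR3 (betaglycan) presents ligand to the pair. In the brain the ligands come from astrocytes, neurons and microglia, and in glioma the pathway is known for its part in invasion and immune suppression.

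The values are FPKM, fragments scaled to transcript length and to the size of the library. Levels are set side by side between genes as a description only, since the listed level of single genes may be off. *Hmgcs1* was listed at 0 in all 10 libraries, and *Gapdh* at no more than 2.52 FPKM except in PT3 (50.1 FPKM). All listed FPKM summed to between 361102 in AstroEGFR*1 and 860068 in AstroEGFR*3 *Zfp423*. No fragment counts were used, and the depth is known only relative to PT1. It was 0.0716 in AstroEGFR*3 and 0.093 in PT3, both of batch 3, and 0.509 to 1.0 in the other 8 libraries. *Zfp423* was at 3.25 to 4.30 FPKM in AstroEGFR* and at 15.7, 9.73 and 105 FPKM in the 3 libraries with its vector. Of the 7 astrocyte markers checked, each exceeded 1 FPKM in at least 1 library of every group, and their sum was 422 to 1030 FPKM in AstroEGFR*, 345 to 730 FPKM in PT and 186, 57.2 and 871 FPKM in AstroEGFR*1, 2 and 3 *Zfp423*. Markers of the oligodendrocyte lineage summed to 1360 and 1690 FPKM in PT1 and PT4, both of batch 1. In PT2 and PT3 the sum was 145 and 131 FPKM. It was 223, 130 and 66.8 FPKM in AstroEGFR*1, 2 and 3, and 38.3, 54.6 and 161 FPKM in AstroEGFR*1, 2 and 3 *Zfp423*. Between PT and AstroEGFR*, 5 of the 6 tested lineage markers had log2 fold changes above 0 and 0 passed the limma test, and *Sox10*, which defines the lineage, was at 8.18 and 117 FPKM in PT1 and PT4 and at no more than 0.103 FPKM in the other 8 libraries. Markers of fibroblasts and meninges summed to 336, 530 and 5200 FPKM in AstroEGFR*1, 2 and 3, to 12.8 to 375 FPKM in PT, and to 4560, 6310 and 234 FPKM in AstroEGFR*1, 2 and 3 *Zfp423*. Markers of microglia and macrophages summed to 502 and 248 FPKM in AstroEGFR*1 and AstroEGFR*2 *Zfp423* and to at most 36.7 FPKM elsewhere, where PT2 was highest and *Cd68* gave nearly all of its sum. In such bulk RNA, fewer cells of a type and less RNA per cell cannot be told apart.

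AstroEGFR* and PT were compared to ask how the system differs between the astrocytes and the tumour cells derived from them. PT held less *Ltbp1*, the binding protein that anchors the latent complex, at 3.98 ± 1.20 FPKM (SD, n = 4) against 29.8 ± 13.3 FPKM (SD, n = 3) in AstroEGFR*. *Tgfb3* and *Ltbp2* were also listed lower in every PT library than in any AstroEGFR* library, and *Tgfb2* and *Tgfbr1* higher in every one. In a limma fit of log2(FPKM + 1) over the 12261 features whose mean reached 1 FPKM, with Benjamini-Hochberg adjustment over all of them, 1 of the 10 genes (*Ltbp1*) passed an adjusted p of 0.05 as lower and 0 as higher, where 1.24% of all features passed, 0.922% as lower and 0.318% as higher. At an unadjusted p of 0.05, 4 of the 10 genes were lower (*Tgfb1*, *Tgfb3*, *Ltbp1* and *Ltbp2*) and 1 was higher (*Tgfb2*), against 13.6% of all features (7.69% lower and 5.88% higher). With the batch as a block, the same 4 were lower at that p, and *Tgfb2*, *Tgfbr1* and *Ltbp4* were higher, against 25.4% of all features (12.3% lower and 13.2% higher). The groups did not overlap for 5 of the 10 genes, 3 with PT below and 2 with PT above, against 14.8% of all features (7.81% below and 6.95% above). Against AstroEGFR* of its own batch, 3 genes were lower and 3 higher in all 4 PT libraries, against 39.9% of all features (18.2% lower and 21.7% higher). The median log2 fold change was -0.44 over the 10 genes and 0.03 over all features. The p-values measure the spread between these cultures only.

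**Figure D1:**
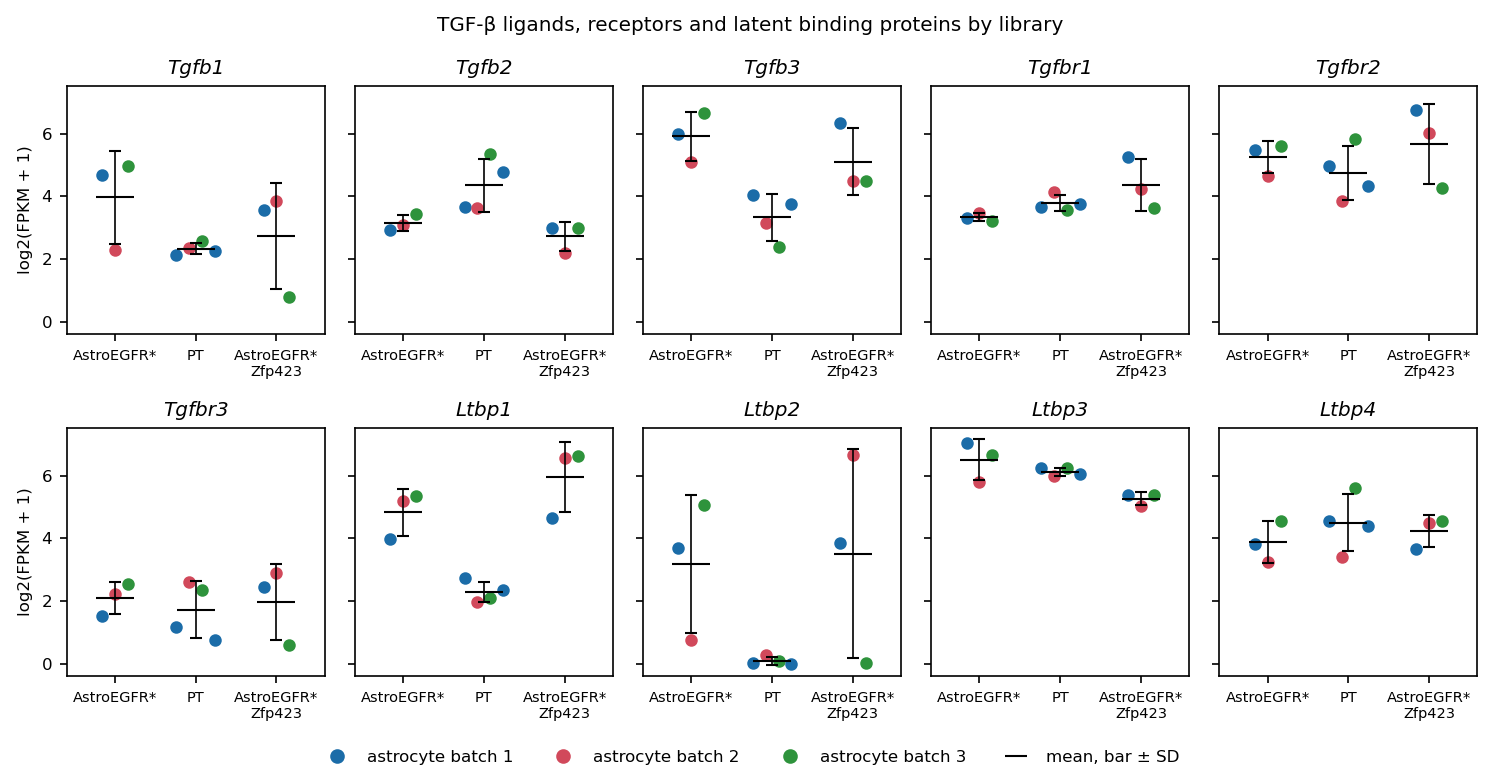
Level of each of the 10 genes in every library as log2(FPKM + 1), coloured by astrocyte batch, with the group mean and SD in black (n = 3 AstroEGFR*, 4 PT and 3 AstroEGFR* Zfp423). The PT points of Tgfb3, Ltbp1 and Ltbp2 lie below all AstroEGFR* points, and those of Tgfb2 and Tgfbr1 above them.

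Among the ligands, *Tgfb3*, known for its role in palate and lung development, was the most abundant in AstroEGFR*, at 63.1, 32.8 and 99.2 FPKM in AstroEGFR*1, 2 and 3. It was at 15.6, 7.79, 4.19 and 12.5 FPKM in PT1, 2, 3 and 4. Every PT library was thus below the lowest AstroEGFR* library, and the mean in AstroEGFR* was 6.49 times that in PT. The log2 fold change was -2.58 (SE 0.50, 95% interval -3.75 to -1.41), and its limma adjusted p of 0.0633 missed the threshold. An exact two-sided permutation test of the 7 libraries gave p = 0.0286 with labels exchanged across batches, and p = 0.0833 with labels exchanged within batches only, each the smallest that such an exchange allows. Against AstroEGFR* of the same batch, *Tgfb3* differed by -4.27 to -1.94 on the log2(FPKM + 1) scale in PT, lower in 4 of 4 libraries. In batch 3 AstroEGFR* was the highest of its group and PT the lowest of its own. Of 16 alternatives, *Tgfb3* passed the threshold only with the batch as a block (log2 fold change -2.70, limma adjusted p = 0.0458), and the adjusted p reached 0.256 without AstroEGFR*1.

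*Tgfb2*, the ligand that needs TGFBR3 most for its binding to the receptors, was listed in the opposite direction. It was at 6.61, 7.44 and 9.72 FPKM in AstroEGFR*1, 2 and 3 and at 11.5, 11.4, 40.0 and 26.2 FPKM in PT1, 2, 3 and 4. No PT value was as low as any AstroEGFR* value, and PT3 and PT4 were well above PT1 and PT2. Its log2 fold change was 1.21 (SE 0.46, 95% interval 0.14 to 2.28), with a limma adjusted p of 0.310 and an exact two-sided permutation p of 0.0857 (0.167 within batches). In its own batch *Tgfb2* was higher in PT by 0.55 to 1.93 on the log2(FPKM + 1) scale.

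*Tgfb1*, the ligand best known from immune regulation, was at 24.6, 3.83 and 30.2 FPKM in AstroEGFR*1, 2 and 3. In PT it was at 3.41, 4.09, 4.98 and 3.76 FPKM. AstroEGFR*2 lay within the range of PT, so the groups overlapped, whereas AstroEGFR*1 and AstroEGFR*3 were several times higher than any PT library. The log2 fold change was -1.64 (SE 0.62), with a limma adjusted p of 0.308. Single AstroEGFR* libraries moved the value: it was -1.29 without AstroEGFR*1, -2.49 without AstroEGFR*2 and -1.14 without AstroEGFR*3, with limma adjusted p of 0.633, 0.0208 and 0.592. Within batch 2 the difference was 0.08 on the log2(FPKM + 1) scale, against -2.54 to -2.39 in the other batches.

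The share of each ligand in the summed ligand FPKM differed with these values. *Tgfb3* made up 66.9% to 74.4% of ligand FPKM in the 3 AstroEGFR* libraries and 8.53% to 51.1% in the 4 PT libraries. *Tgfb2* made up 6.98% to 16.9% in AstroEGFR* and 37.7% to 81.3% in PT, so the ranges of both shares were apart. *Tgfb1* made up 8.69% to 26.1% in AstroEGFR* and 8.84% to 17.6% in PT. Summed over the 3 ligands, the level was 44.1 to 139 FPKM in AstroEGFR* and 23.3 to 49.2 FPKM in PT, and these ranges overlapped. The shares are made from the same values as the single genes and were not tested.

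**Figure D2:**
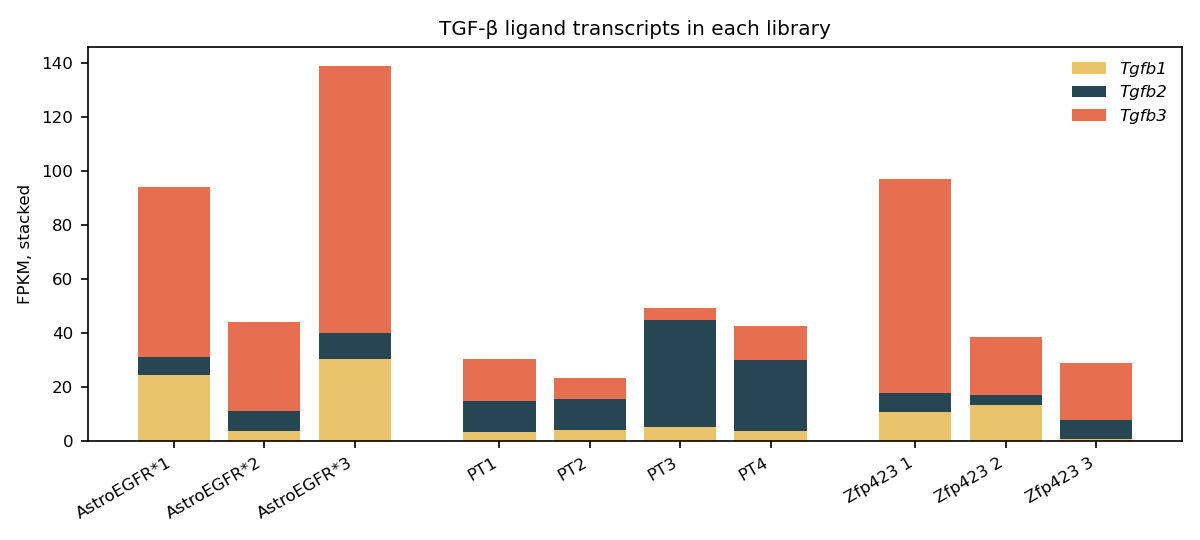
FPKM of the 3 TGF-β ligands stacked for each library (Zfp423 1 to 3 are AstroEGFR*1 to 3 with the Zfp423 vector). Tgfb3 takes 66.9% to 74.4% of the bar in AstroEGFR* and 8.53% to 51.1% in PT, where Tgfb2 takes 37.7% to 81.3%.

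None of the 3 receptors passed the test between AstroEGFR* and PT. *Tgfbr1*, the type I receptor kinase, was at 8.91, 10.1 and 8.29 FPKM in AstroEGFR*1, 2 and 3 and at 11.7, 16.6, 10.8 and 12.5 FPKM in PT1, 2, 3 and 4. The PT values were all above the AstroEGFR* values, by a small margin between PT3 and AstroEGFR*2. On the log2 scale the difference was 0.45 (SE 0.23, 95% interval -0.086 to 0.99), with a limma adjusted p of 0.453 and an exact two-sided permutation p of 0.0571 (0.0833 within batches). Within batches the difference was 0.35 to 0.67 on the log2(FPKM + 1) scale, higher in 4 of 4 PT libraries.

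*Tgfbr2*, the ligand-binding type II receptor, was the most abundant of the 3 in AstroEGFR*, at 44.0, 24.3 and 47.8 FPKM, and made up 63.9% to 80.3% of receptor FPKM there. In PT1 to PT4 it was at 30.4, 13.5, 55.9 and 19.0 FPKM. The groups overlapped over most of their range, with PT3 above all AstroEGFR* libraries, and the 95% interval of the log2 fold change ran from -1.64 to 0.63 (limma adjusted p = 0.726). *Tgfbr3* was low throughout, at 1.89, 3.67 and 4.77 FPKM in AstroEGFR* and at 1.26, 5.12, 4.12 and 0.681 FPKM in PT1, 2, 3 and 4. Both PT libraries of batch 1 were below the other 2 PT libraries, and the interval of its log2 fold change was -1.61 to 0.87 (limma adjusted p = 0.835).

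Of the latent TGF-β binding proteins, *Ltbp1* was at 14.7, 35.2 and 39.6 FPKM in AstroEGFR*1, 2 and 3 and at 5.62, 2.94, 3.24 and 4.13 FPKM in PT1, 2, 3 and 4. The groups were apart, with AstroEGFR*1 the lowest of its group and PT1 the highest of its own, both from batch 1. *Ltbp1* fell by 2.54 on the log2 scale (SE 0.39, 95% interval -3.44 to -1.65, limma adjusted p = 0.0285), and the exact two-sided permutation p was 0.0286 across batches and 0.0833 within batches. A fit with batch as a block gave -2.51 (limma adjusted p = 0.0419). Within batches it differed by -1.24 in PT1, -1.61 in PT4, -3.20 in PT2 and -3.26 in PT3 on the log2(FPKM + 1) scale, lower in 4 of 4 libraries. The direction held in each of the 16 alternatives, with log2 fold changes of -2.98 to -2.22, but the call held in 5 of them. Leaving out AstroEGFR*1, AstroEGFR*2, AstroEGFR*3, PT2, PT3 or PT4 gave adjusted p-values of 0.0541, 0.0836, 0.0971, 0.0689, 0.0647 and 0.0824, and leaving out the 2 shallow libraries of batch 3 gave 0.175. Markers of fibroblasts and meninges were lower in PT in 7 of 7 log2 fold changes. Of these, 6 were at a limma unadjusted p of 0.05, against 7.69% of all features as lower. *Pdgfrb* passed the threshold (log2 fold change -4.14, limma adjusted p = 0.0200). Neither the part of these markers in the result nor that of the oligodendrocyte lineage markers was tested.

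RefSeq gives *Ltbp1* 2 start sites, of a long and a short form, and FPKM per gene do not separate them. The 250 bases before each are shown with those of *Tgfb2*, the ligand listed in the opposite direction, read 5′ to 3′ on the strand of the gene from RefSeq (GRCm38.p6, while the FPKM rest on mm9). Capitals mark matches on either strand to 1 of 5 searched motifs: the GC box GGGCGG, the AP-1 motif TGANTCA, the cAMP response element TGACGTCA, the SMAD motif CAGAC and the SRF CArG box.
*Ltbp1*, chr17:75005279-75005528, plus strand: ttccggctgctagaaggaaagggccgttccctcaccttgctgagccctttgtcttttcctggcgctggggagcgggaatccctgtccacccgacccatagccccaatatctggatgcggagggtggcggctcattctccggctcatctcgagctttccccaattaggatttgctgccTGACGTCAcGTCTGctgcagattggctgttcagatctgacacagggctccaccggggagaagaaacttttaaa
*Ltbp1*, chr17:75178531-75178780, plus strand: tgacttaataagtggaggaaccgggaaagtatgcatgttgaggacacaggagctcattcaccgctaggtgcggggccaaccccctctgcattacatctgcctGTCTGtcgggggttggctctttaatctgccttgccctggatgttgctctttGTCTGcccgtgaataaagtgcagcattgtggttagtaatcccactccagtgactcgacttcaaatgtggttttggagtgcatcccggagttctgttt
*Tgfb2*, chr1:186705990-186706239, minus strand: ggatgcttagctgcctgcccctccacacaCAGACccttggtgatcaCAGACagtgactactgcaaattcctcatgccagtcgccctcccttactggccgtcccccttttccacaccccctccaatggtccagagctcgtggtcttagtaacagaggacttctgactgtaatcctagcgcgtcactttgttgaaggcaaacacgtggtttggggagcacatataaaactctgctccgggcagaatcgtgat
The first *Ltbp1* window held 1 cAMP response element followed after 1 base by 1 SMAD motif (read here as GTCTG), and the second held 2 SMAD motifs. The *Tgfb2* window held 2 SMAD motifs, and part of it also lies in an exon of the overlapping gene Gm29491. Among 32851 RefSeq windows of the same length, 1.55% held the cAMP response element and 42.2% the SMAD motif, while 32.7% held the GC box, 6.75% the AP-1 motif and 1.47% the CArG box, none of which is in the 3 windows shown. GC content was 56.8% and 50.8% in the *Ltbp1* windows and 53.6% in that of *Tgfb2*, against a median of 52.4%. RefSeq windows were found for 8 of the 10 genes, and the set used here held none for *Tgfb3* or *Tgfbr3*. GC boxes were present in windows of *Tgfb1*, *Tgfbr1*, *Ltbp2* and *Ltbp4*, which are not shown. A match describes letters in the window and not a site.

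*Ltbp2*, a matrix protein that does not bind latent TGF-β as the other LTBPs do, was at 12, 0.681 and 32.6 FPKM in AstroEGFR*1, 2 and 3. In PT1 to PT3 it was at 0.00693, 0.208 and 0.0543 FPKM, and in PT4 it was listed at 0. Each PT value was thus under each AstroEGFR* value, but AstroEGFR*2 was far below the other 2 AstroEGFR* libraries. The log2 fold change was -3.08 on the log2(FPKM + 1) scale (SE 0.91, limma adjusted p = 0.180). It was -4.30 without AstroEGFR*2 and -2.13 without AstroEGFR*3, with limma adjusted p of 0.0207 and 0.398, and -5.49 with a pseudocount of 0.1 (0.106). A low listed value was not read as absence, since *Hmgcs1* was listed at 0 in all 10 libraries.

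*Ltbp3*, which is needed for TGF-β activation in bone, had the highest mean of the 10 genes in both groups. It was at 132, 54.2 and 101 FPKM in AstroEGFR* and at 74.1, 62.4, 74.8 and 65.0 FPKM in PT1, 2, 3 and 4, all inside the range of AstroEGFR*. The 95% interval of its log2 fold change was -1.14 to 0.37 (limma adjusted p = 0.684). *Ltbp4*, which binds the TGF-β1 complex and takes part in elastic fibre assembly, was at 13.0, 8.47 and 22.7 FPKM in AstroEGFR* and at 22.5, 9.48, 47.9 and 20.1 FPKM in PT1, 2, 3 and 4. PT was higher than AstroEGFR* of its batch in 4 of 4 libraries, by 0.14 to 1.04 on the log2(FPKM + 1) scale, but the groups overlapped (log2 fold change 0.62, SE 0.54, limma adjusted p = 0.693). In the summed FPKM of the 4 binding proteins, *Ltbp1* made up 8.52% to 35.7% in AstroEGFR* and 2.57% to 5.5% in PT, and *Ltbp3* 51.6% to 77.0% and 59.4% to 83.2%.

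The order of mean FPKM, which is per length but may be off for single genes, was *Ltbp3*, *Tgfb3*, *Tgfbr2*, *Ltbp1*, *Tgfb1*, *Ltbp2*, *Ltbp4*, *Tgfbr1*, *Tgfb2* and *Tgfbr3* in AstroEGFR*. In that order only *Tgfb2* and *Tgfbr3* were neighbours whose ranges did not overlap. In PT the order was *Ltbp3*, *Tgfbr2*, *Ltbp4*, *Tgfb2*, *Tgfbr1*, *Tgfb3*, *Tgfb1*, *Ltbp1*, *Tgfbr3* and *Ltbp2*. There *Ltbp3* was apart from *Tgfbr2* below it and *Tgfbr3* from *Ltbp2*, and the other neighbours overlapped. In AstroEGFR* *Zfp423* *Ltbp1* had the highest mean and *Tgfbr3* the lowest, and the ranges of all neighbours overlapped.

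**Figure D3:**
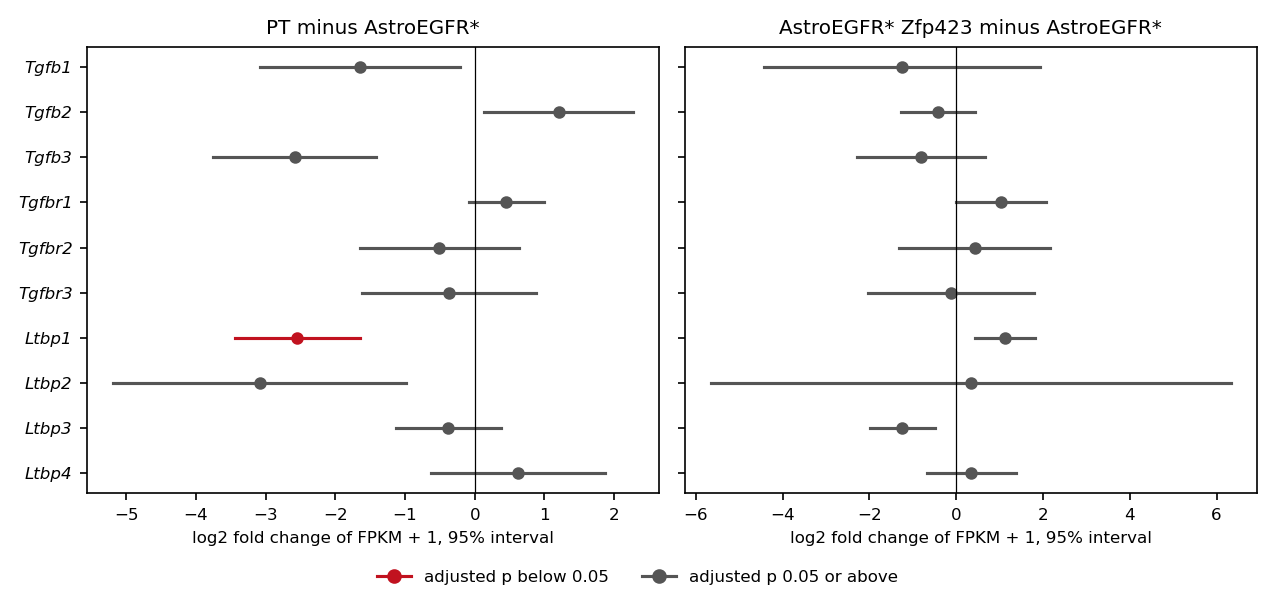
Log2 fold change of FPKM + 1 from limma with its 95% interval for the 10 genes, for PT minus AstroEGFR* (left, 4 and 3 libraries) and AstroEGFR* Zfp423 minus AstroEGFR* with batch as a block (right, 3 and 3 libraries). Red marks an adjusted p below 0.05, reached by Ltbp1 in PT alone among these values, at -2.54.

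Beyond these 10 genes, 42 other genes of the pathway were taken from lists of activators, ligand-binding proteins, SMADs with their regulators, and target genes. In PT against AstroEGFR*, 38 of the 42 were tested, and 6 passed the limma test as lower and 0 as higher, where 0.922% of all features passed as lower and 0.318% as higher. At an unadjusted p of 0.05, 18 were lower and 0 higher, against 7.69% and 5.88% of all features. The median log2 fold change of the 38 was -0.90, against 0.03 over all features. By list, 2 of 11 tested genes of latency, anchoring and activation were called lower (median -0.69), 1 of 5 ligand-binding proteins and co-receptors (median -3.73), 1 of 13 SMADs and signal regulators (median -0.16) and 2 of 9 transcriptional targets (median -1.36). With the batch as a block, 13 of the pathway genes were called lower, while the features called lower among all those tested went from 113 to 329, and with PT1 and PT4 averaged the counts were 1 and 43.

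Of the proteins that release latent TGF-β, *Thbs1*, which encodes thrombospondin 1, was at 352, 116 and 314 FPKM in AstroEGFR* and at 0.382, 0.986, 18.5 and 0.581 FPKM in PT1, 2, 3 and 4. It fell by 6.28 on the log2 scale (SE 0.94, limma adjusted p = 0.0274), and PT3, the highest PT library, was still well below the lowest AstroEGFR* library. *Itgb5*, which pairs with the αv integrin chain, was at 177, 95.4 and 111 FPKM in AstroEGFR* and at 17.2, 22.7, 4.11 and 18.6 FPKM in PT (log2 fold change -3.11, SE 0.55, limma adjusted p = 0.0474). *Fmod*, the matrix proteoglycan fibromodulin that binds TGF-β, was at 410, 13.1 and 183 FPKM in AstroEGFR* and at most at 0.219 FPKM in PT, listed at 0 in PT1 (log2 fold change -6.59, SE 1.01, limma adjusted p = 0.0289). All 3 genes were apart between the groups, where 7.81% of all features had PT below. They were named for passing the limma test on these same values, so this adds no support. Of the 16 alternatives, the call held in 7 for *Thbs1*, in 4 for *Itgb5* and in 7 for *Fmod*, with limma adjusted p of up to 0.142, 0.223 and 0.192. The log2 fold change of *Fmod* was -5.59 without AstroEGFR*1, -8.02 without AstroEGFR*2 and -9.41 with a pseudocount of 0.1, and that of *Thbs1* was -7.17 without PT3 and -7.19 with a pseudocount of 0.1.

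Among signal regulators, *Smad7*, the inhibitory SMAD that TGF-β itself induces, was at 16.9, 14.3 and 9.98 FPKM in AstroEGFR* and at 2.45, 1.43, 2.46 and 2.21 FPKM in PT. It fell by 2.21 on the log2 scale (SE 0.28, limma adjusted p = 0.0156), and both groups were narrow. Among target genes, *Ctgf*, a matricellular growth factor, was at 297, 82.3 and 370 FPKM in AstroEGFR* and at 4.56, 2.78, 20.0 and 4.07 FPKM in PT (log2 fold change -4.93, SE 0.72, limma adjusted p = 0.0260). *Acta2*, smooth muscle actin, was at 976, 725 and 1730 FPKM and at 19.9, 0.239, 4.95 and 2.69 FPKM (log2 fold change -7.78, SE 0.86, limma adjusted p = 0.0109). Each of these 3 genes was lower in all PT libraries than in any AstroEGFR* library, which adds no support either, since they were named in the same way. The call held in 10 of the 16 alternatives for *Smad7*, in 6 for *Ctgf* and in 14 for *Acta2*, with limma adjusted p of up to 0.101, 0.134 and 0.102. The log2 fold change of *Ctgf* was -5.59 without AstroEGFR*2, and that of *Acta2* was -8.48 without PT1, -7.12 without PT2 and -8.42 with a pseudocount of 0.1.

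The number of pathway genes called lower depended on single libraries. It was 0 without AstroEGFR*1, 4 without AstroEGFR*2 and 2 without AstroEGFR*3, where 6, 99 and 39 of all features were called lower. It was 2 without PT1, 2 without PT2, 6 without PT3 and 1 without PT4, where 67, 48, 67 and 41 of all features were called lower, and 2 without the shallow libraries of batch 3, with 6 of all features. Several of these genes are also expressed by fibroblasts, whose marker list shares *Col1a1*, *Col1a2* and *Dcn* with the pathway lists. These 3 were named for that overlap, and none of them passed the limma threshold. The fibroblast marker *Pdgfrb*, which is not in the pathway lists, did (log2 fold change -4.14, limma adjusted p = 0.0200). The fibroblast and oligodendrocyte lineage sums are given above, and their part in the pathway counts was not tested.

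**Figure D4:**
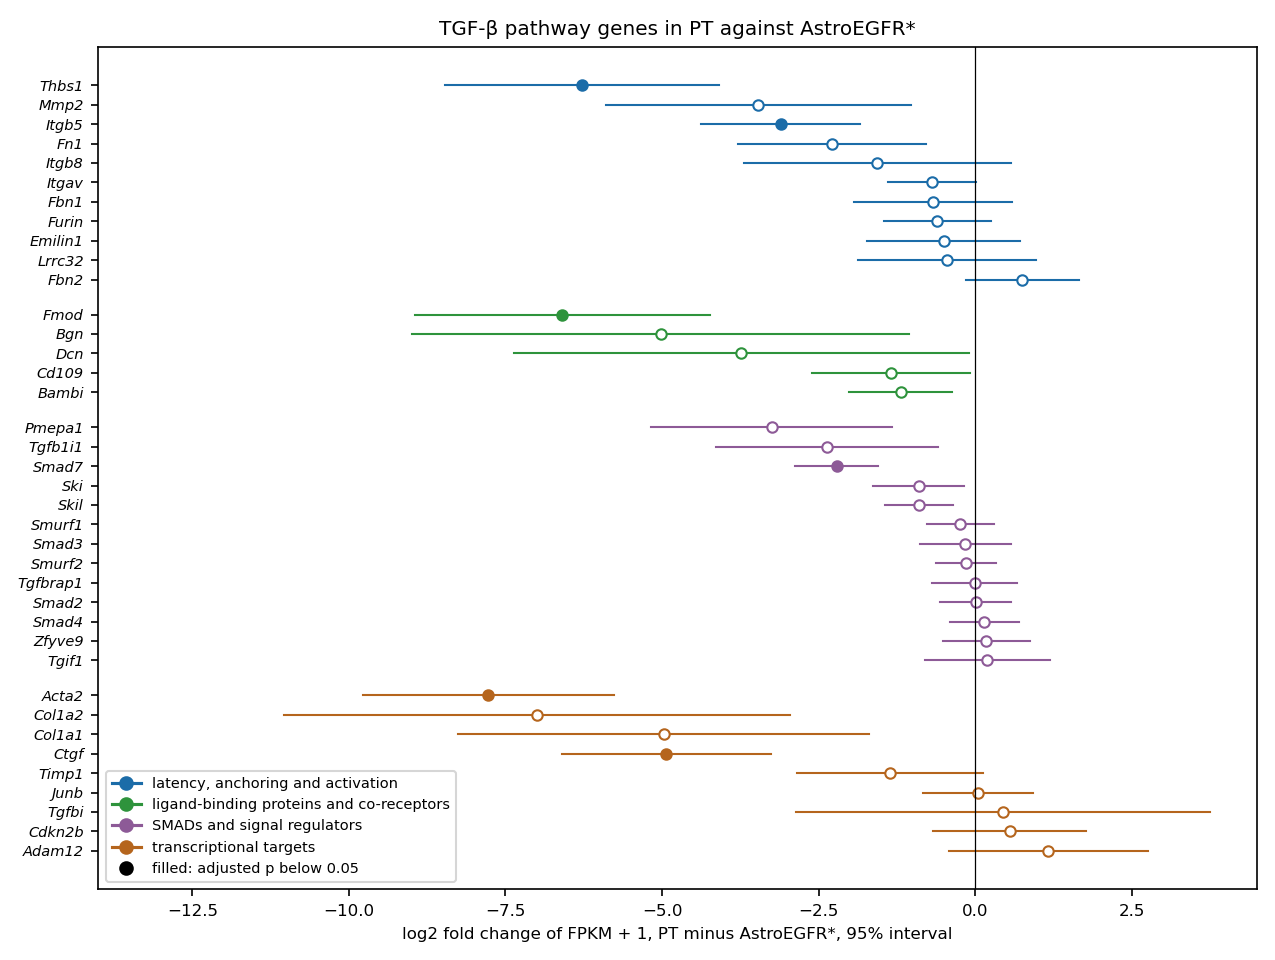
Log2 fold change of FPKM + 1, PT minus AstroEGFR*, with its 95% interval for the 38 tested pathway genes, coloured by list. Filled points (6 genes, all on the negative side) have a limma adjusted p below 0.05.

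The AstroEGFR* libraries also served as the controls of AstroEGFR* *Zfp423*, a comparison that asks what the vector changed within each batch, so the 2 comparisons are not independent. None of the 10 genes passed the limma test with batch as a block, as was true of all 12366 features tested (0.0%), and at an unadjusted p of 0.05 *Ltbp1* was higher and *Ltbp3* lower, against 7.38% of features (3.3% higher and 4.08% lower). Libraries of the same batch did not deviate together in batches 2 and 3, and without the block *Tgfbr1* was higher and *Ltbp3* lower at that p, against 5.97% of features (2.6% higher and 3.36% lower), while *Ltbp1* was not called. *Ltbp1* and *Tgfbr1* were higher and *Ltbp3* lower in all 3 batches. That share of the 10 genes is close to the 31.6% of all features (16.3% higher and 15.2% lower), so the same sign is not particular to these genes. The other 7 genes had mixed signs. Beside them, the 7 astrocyte markers all had log2 fold changes below 0. Of these, 3 were at an unadjusted p of 0.05 and none passed the limma threshold. In batch 2 *Gfap* was at 1.11 FPKM with the vector against 109 FPKM, and *Aqp4* at 0.0266 against 15.8 FPKM. In batch 3 *Aldh1l1* was higher with the vector (356 against 127 FPKM), as was *Gja1* (91.1 against 85.0 FPKM). *S100b* was higher in batch 1 (6.99 against 1.91 FPKM), and the other astrocyte markers were lower in all 3 batches. The part of these markers in the values of the 10 genes was not tested.

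*Ltbp1* was at 24.1, 94.5 and 97.9 FPKM in AstroEGFR*1, 2 and 3 *Zfp423*, or 1.64, 2.68 and 2.47 times the level of its own batch. Over the 3 batches the log2 fold change was 1.12 (SE 0.25, 95% interval 0.44 to 1.80, limma adjusted p = 0.628), and without the block its SE was 0.64 (limma unadjusted p = 0.127). Set beside the PT comparison, the same gene had -2.54 there, and AstroEGFR*1 *Zfp423* was below AstroEGFR*2 and AstroEGFR*3. *Ltbp3* was at 41.1, 31.8 and 40.4 FPKM, or 0.311, 0.587 and 0.399 times the level of its batch. All 3 values were below every AstroEGFR* library, with a log2 fold change of -1.24 (SE 0.27, 95% interval -1.98 to -0.50, limma adjusted p = 0.628). *Ltbp3* made up 12.8% to 45.7% of binding-protein FPKM with the vector, against 51.6% to 77.0% without it. The 12.8% was in batch 2, where *Ltbp1* and *Ltbp2* were higher and the summed FPKM was 249 with the vector against 98.6.

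*Tgfbr1* was at 36.9, 17.6 and 11.3 FPKM, all above every AstroEGFR* library, or 4.14, 1.75 and 1.36 times the level of its batch. Over the 3 batches the log2 fold change was 1.03 (SE 0.38, 95% interval -0.013 to 2.07, limma adjusted p = 0.628). The order of the 3 libraries was that of the microglia and macrophage sums, at 502, 248 and 1.23 FPKM, and the part of those cells in the result was not tested. In batch 3, with a sum of 1.23 FPKM against 1.57 FPKM in AstroEGFR*3, the difference in *Tgfbr1* was 0.40 on the log2(FPKM + 1) scale. The groups did not overlap for *Tgfbr1* and *Ltbp3*, that is for 2 of the 10 genes, against 11.5% of all features (5.68% above and 5.87% below).

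**Figure D5:**
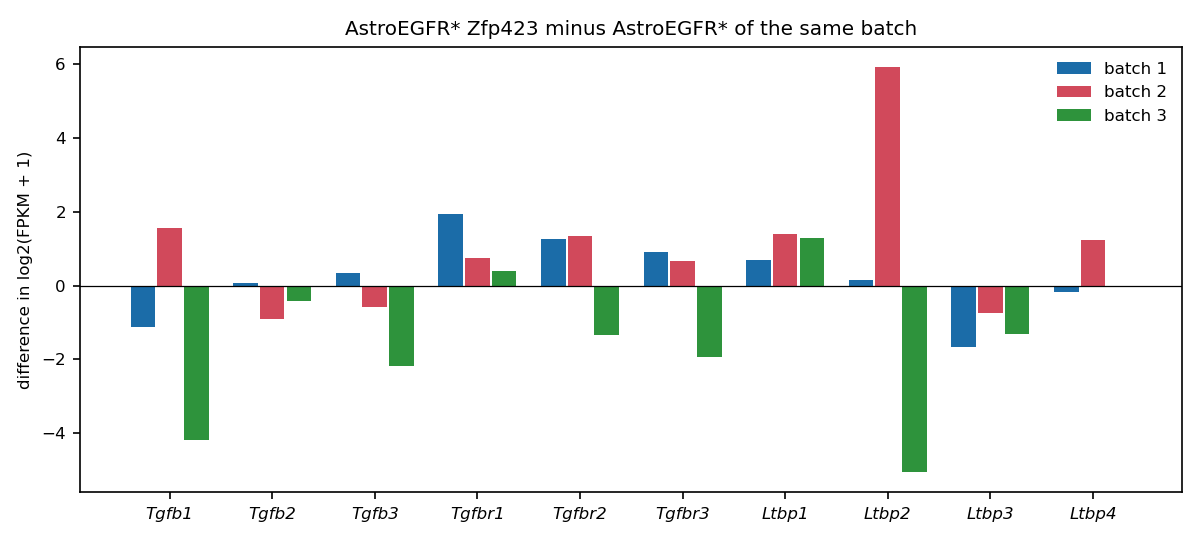
Difference in log2(FPKM + 1) between AstroEGFR* Zfp423 and AstroEGFR* of the same batch for the 10 genes, 1 bar per batch. Tgfbr1 and Ltbp1 lie above 0 and Ltbp3 below 0 in all 3 batches, while Ltbp2 runs from -5.06 in batch 3 to 5.92 in batch 2.

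Each of the 3 ligands had mixed signs across the batches with the vector. *Tgfb3* was at 79.6, 21.6 and 21.3 FPKM, *Tgfb2* at 6.92, 3.52 and 7.01 FPKM and *Tgfb1* at 10.7, 13.4 and 0.723 FPKM in AstroEGFR*1, 2 and 3 *Zfp423*. The 95% intervals of their log2 fold changes all included 0 (limma adjusted p of 0.698, 0.720 and 0.775). *Tgfb3* was the most abundant ligand in all 3 libraries, with 56.1% to 81.9% of ligand FPKM, against 66.9% to 74.4% in AstroEGFR*. *Tgfbr2* was at 107, 63.8 and 18.2 FPKM and *Tgfbr3* at 4.42, 6.38 and 0.505 FPKM, both lowest in batch 3 (limma adjusted p of 0.865 and 0.971). *Ltbp2* was at 13.4, 101 and 0.00607 FPKM and *Ltbp4* at 11.5, 21.5 and 22.3 FPKM (limma adjusted p of 0.977 and 0.802). Of the pathway genes, 41 were tested and 0 were called by limma, with 1 at an unadjusted p of 0.05 (against 0.0% and 7.38% of all features), 21 log2 fold changes above and 20 below 0, and a median of 0.02.

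The features whose log2(FPKM + 1) followed 1 gene of each role most closely over the 10 libraries are given as a description. For *Tgfb3* these were *Slc6a6*, the taurine transporter, *Ctf1*, the cytokine cardiotrophin 1, and *Pygb*, a glycogen phosphorylase, with Pearson's r of 0.967, 0.95 and 0.948. For *Tgfbr1* these were *Irf8*, a transcription factor of microglia and other myeloid cells, the exonuclease *Trex1* and *Adap2*, with r of 0.922, 0.917 and 0.903. *Irf8* was at 15.4 and 7.02 FPKM in the 2 libraries with high microglia sums and at no more than 1.21 FPKM elsewhere. For *Ltbp1* these were *Kpna4*, an importin, *Suds3* and the kinase *Map4k5*, with r of 0.952, 0.943 and 0.935. These 9 features were picked as the highest r among 12476, and the 10 libraries share groups, batches and depth. Between the 10 genes themselves, r was highest for *Tgfb1* with *Ltbp2* (0.827) and lowest for *Tgfb2* with *Ltbp1* (-0.776).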

How the data were processed

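The authors deposited 1 matrix of FPKM values for 10 libraries and 23230 features. Per the submitters' processing notes, TopHat 1.3, Cuffnorm and mm9 were used, with their settings not given in the sources used here. The labels name a TruSeq RNA kit, and the study's methods describe removal of ribosomal RNA and stranded libraries. Every column was used. FPKM hold no counts, so no count model was run and the precision of each value is unknown. The depth of each library relative to PT1 was estimated from features of few fragments (at 0 in at least 5 libraries), as the mode of their log2 ratio between libraries, and 43 of 45 pairs were within 0.1 of the estimate.

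Features were kept where their mean reached 1 FPKM, and log2(FPKM + 1) was fitted with limma 3.58.1 (R 4.3.3; linear model, empirical Bayes with trend), with Benjamini-Hochberg adjustment over all features and a threshold of 0.05. A fold change on this scale understates that of low values. PT and AstroEGFR* were compared without a block, and AstroEGFR* *Zfp423* and AstroEGFR* with the astrocyte batch as a block, since the titles carry the batch number. The labels do not give the batch of each PT library, which was taken from a figure of the study. Deviations from the group means correlated at 0.347 to 0.500 between AstroEGFR* and PT of a batch, and at 0.239, -0.110 and -0.261 between AstroEGFR* and AstroEGFR* *Zfp423* of batches 1, 2 and 3. For single genes an exact permutation of the 7 group labels was added, in 35 arrangements across batches and, as an alternative chosen after seeing the data, in 12 within batches. Tables and figures used Python 3.11.15, numpy 2.4.6, pandas 2.3.3 and matplotlib 3.10.9.

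The 10 genes, the pathway and marker lists and the searched motifs were chosen with earlier results of these data known. Named were all 10 genes, each pathway gene past the threshold, the 3 features most like the gene of lowest p in each role, and *Zfp423*. *Sox10*, *Cd68*, *Gfap*, *Aqp4*, *Aldh1l1*, *Gja1*, *S100b*, *Gapdh*, *Hmgcs1*, *Lrrc33*, *Col1a1*, *Col1a2*, *Dcn* and *Pdgfrb* fall outside this rule and were named after their values were seen. An item of the pathway lists is not reported here and was left out of their counts. Alternatives were a pseudocount of 0.1, no filter, median-ratio scaling, no trend, 1 fit of all 10 libraries, the block or its absence, PT1 and PT4 averaged, each library left out in turn, and batch 2 or 3 left out. The depth sets no interval here, and low values of AstroEGFR*3 and PT3 rest on the fewest fragments.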

Additional observations from a re-analysis of the deposited data

Results flagged for a closer look

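In AstroEGFR* *Zfp423* against AstroEGFR* of the same batch, 3 of the 10 genes differed by more than 1 on the log2(FPKM + 1) scale in opposite directions in 2 batches. The difference between batches was not tested, since each batch holds 1 library per group. *Tgfb1* differed by 1.57 in batch 2 and by -4.18 in batch 3, 5.75 apart, with -1.13 in batch 1. *Tgfbr2* differed by 1.36 in batch 2 and by -1.34 in batch 3, 2.70 apart, with 1.26 in batch 1. *Ltbp2* differed by 5.92 in batch 2 and by -5.06 in batch 3, 10.99 apart, with 0.15 in batch 1. Beside them, markers of fibroblasts and meninges summed to 4560 FPKM in AstroEGFR*1 *Zfp423* against 336 FPKM in AstroEGFR*1, to 6310 FPKM in AstroEGFR*2 *Zfp423* against 530 FPKM in AstroEGFR*2, and to 234 FPKM in AstroEGFR*3 *Zfp423* against 5200 FPKM in AstroEGFR*3. Markers of microglia and macrophages summed to 502, 248 and 1.23 FPKM with the vector in batches 1, 2 and 3, against 5.69, 2.31 and 1.57 FPKM without it. The part of either list in these differences was not tested.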

How the results depend on the processing

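In PT against AstroEGFR*, none of the 10 genes changed direction in any of the 16 alternatives. The 1 gene called lower (*Ltbp1*) became 0 without a filter, with all 10 libraries in 1 fit, with PT1 and PT4 averaged and without batch 3. It became 2 with the batch as a replicate block (*Ltbp1* and *Tgfb3*) and 2 without batch 2 (*Tgfb1* and *Ltbp2*), and was 0 to 2 with 1 library left out. *Tgfb1* and *Ltbp2* were then called without AstroEGFR*2. The 6 pathway genes called lower became 2 without a filter, 3 in 1 fit of all libraries, 13 with the replicate block, 1 with PT1 and PT4 averaged, 3 without batch 2 and 2 without batch 3, and 0 to 6 with 1 library left out. Over all features, 113 lower and 39 higher became 329 and 146 with the replicate block, 45 and 17 in 1 fit, 43 and 18 with PT1 and PT4 averaged, 48 and 15 without batch 2, 6 and 2 without batch 3, and 6 and 1 without AstroEGFR*1. The cause was not tested, beyond the fewer libraries. In AstroEGFR* *Zfp423* against AstroEGFR*, 0 of the 10 genes and 0 pathway genes were called in each of the 8 alternatives; over all features, 2 were higher without the replicate block and 50 higher and 1 lower without replicate 2. The log2 fold change of *Ltbp2* was -0.36 with a pseudocount of 0.1. With 1 batch left out it ran from -2.46 to 3.04 for *Ltbp2*, -2.65 to 0.22 for *Tgfb1*, -0.042 to 1.31 for *Tgfbr2*, -0.64 to 0.78 for *Tgfbr3* and -0.10 to 0.61 for *Ltbp4*.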

Other observations

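*Lrrc33*, which encodes a protein that holds latent TGF-β1 on microglia and macrophages, was too low for the comparison of PT with AstroEGFR*, at 0.104 to 0.833 FPKM in those 7 libraries. It was at 10.9 and 7.93 FPKM in AstroEGFR*1 and AstroEGFR*2 *Zfp423* and at 0.208 FPKM in AstroEGFR*3 *Zfp423*. The first 2 are the libraries with 502 and 248 FPKM of summed microglia and macrophage markers, against 1.23 FPKM in the third. The gene was named after its values were seen.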
